A study of Mus musculus with 8 samples.

Results

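The auditory nerve carries signals from the cochlea to the brainstem and holds spiral ganglion neurons, their axons and the glia that wrap them. Described here are 10 genes for heat shock proteins and endoplasmic reticulum chaperones, chosen by symbol: Hspa1a, Hspa1b, Dnajb1, Hspa8, Hsp90aa1, Hspb1, Cryab, Hspa5, Hsp90b1 and Ddit3. All 10 were among the 15035 genes of the table, and all 10 were among the 14870 tested. RNA came from auditory nerves dissected at postnatal day 21, with the 2 cochleas of each mouse pooled, so that 1 library stands for 1 mouse. The groups are wild type (libraries 1 to 4) and Mef2c heterozygote (+/-, libraries 5 to 8). Mef2c encodes a MADS-box transcription factor. The type of Mef2c allele, its promoter or Cre driver if any, the strain and the sex are not given in the sources used here.

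Cytosolic chaperones of the HSP70 and HSP90 families bind unfolded stretches of other proteins and help them fold, with HSP40 co-chaperones delivering clients to HSP70. In stressed cells the transcription factor HSF1 switches on the inducible members, which bear heat shock elements in their promoters. A separate system, the unfolded protein response, adjusts the folding capacity of the endoplasmic reticulum through the sensors IRE1, PERK and ATF6, and it raises the lumenal chaperones encoded by Hspa5 and Hsp90b1. Prolonged activation induces Ddit3. Neurons with long axons and glia that make myelin both load these systems heavily, because they produce large amounts of membrane and secreted protein.

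The values are reads per gene scaled by 1 size factor for each library, called normalized counts below. Differences are log2 fold changes of heterozygote over wild type on the scale log2(normalized count + 1), tested with limma-trend across all 14870 genes with Benjamini-Hochberg adjustment at 0.05. The labels name the samples biological replicates, and the p-values measure the spread between these 8 libraries. Estimated depth was 13363374 to 21507198 reads per library. Neuronal and glial markers were present in every library: the summed normalized counts of 10 spiral ganglion neuron markers ran from 198080 to 272005 in wild type and from 220968 to 266190 in the heterozygotes. Mef2c itself goes against the label, with means of 462 ± 50.4 (wild type) and 668 ± 66.8 normalized counts (labelled heterozygote; SD, n = 4 each), so directions are given for libraries as labelled. Reads over single exons of Mef2c were not analysed here. Wild-type library 1 stands apart: Rn45s, the ribosomal RNA precursor, took 4.28% of its normalized counts against 1.60% to 2.91% in the others, and its quality weight was the lowest, at 0.299 against 0.668 to 1.90. Xist was under 100 normalized counts in wild-type library 1 (12) and heterozygote-labelled library 5 (7.6), against 5175 to 8615 in the others.

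None of the 10 chaperone genes passed an adjusted p of 0.05, against 12 of all genes tested (0.0807%). The 10 were chosen with earlier results of these data known, so the counts below are not independent of that choice. At an unadjusted p under 0.05 there were 5 of 10, against 14.1% of all genes. These were Dnajb1 and Hspa1b, with higher means in the heterozygote-labelled libraries, and Hspa5, Hsp90b1 and Cryab, with lower means. In 3 of the 10 the genotypes did not overlap, against 7.26% of all genes. Dnajb1 did not overlap on the higher side, as did 3.4% of all genes, and Hspa5 and Cryab on the lower side, as did 3.86%. The median log2 fold change of the 10 was -0.11, against 0.015 over all tested genes. Dnajb1, Hspa1b and Hspa5 kept an unadjusted p under 0.05 in the 20 alternatives that kept Hspa1a and Hspa1b apart. These include other normalizations, the correction for transcript length and each library left out in turn. Hspa1b did not when summed with Hspa1a, its near-identical neighbour (p 0.0769). In the authors' deposited table, too, 0 of the 10 had an FDR under 0.05, against 1.61% of genes. The lowest FDR values there were 0.0822 for Hspa5 and 0.0872 for Hspa1b. The differences are small throughout: the largest, for Hspa1b, corresponds to a ratio of 1.47 between group means, and the smallest of the 5, for Cryab, to 0.867.

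**Figure D1:**
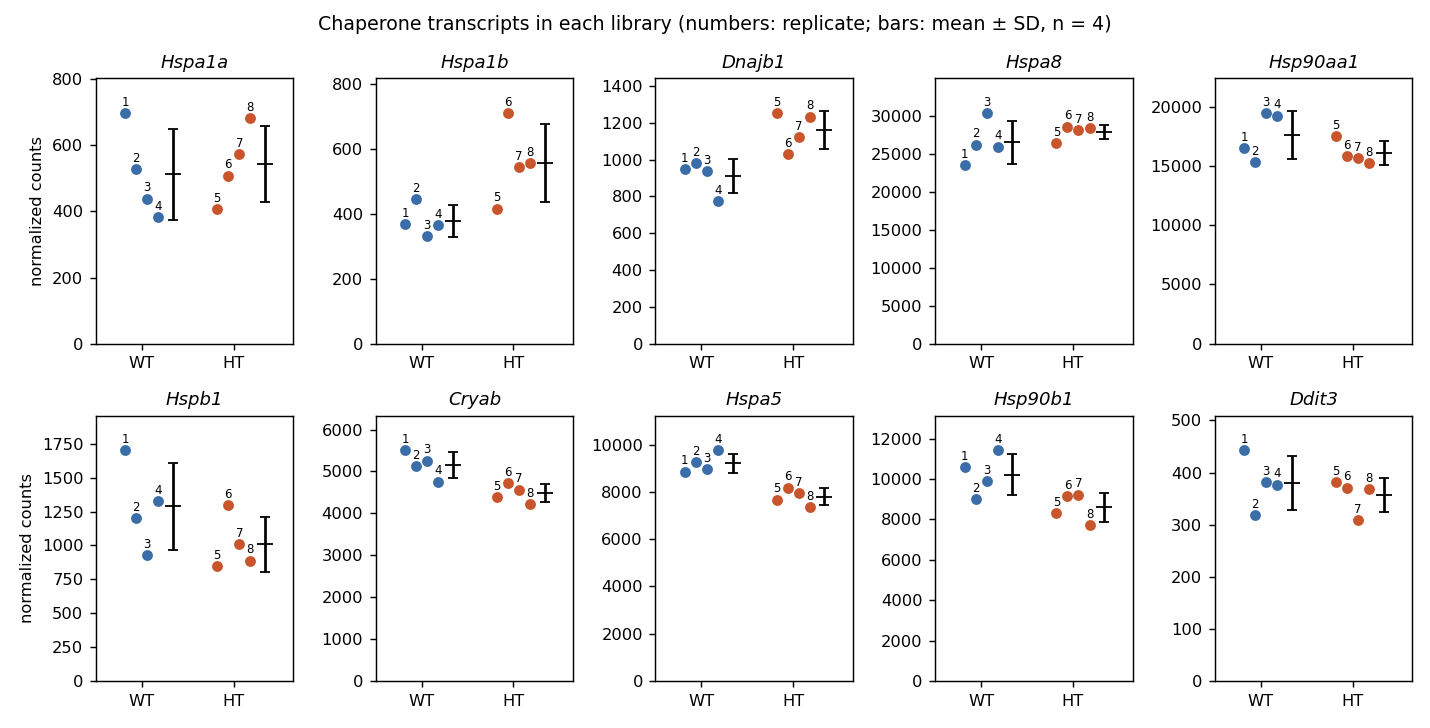
Normalized counts (y axis, from 0) of the 10 genes in 4 wild-type (WT, blue) and 4 heterozygote-labelled (HT, orange) libraries, each point marked with its replicate number, with bars giving mean ± SD. The genotypes separate for Dnajb1, Hspa5 and Cryab and overlap for the other genes.

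Levels were first compared between genes per kilobase of the longest coding transcript of each gene. Hspa8, the constitutive cytosolic HSP70, was the most abundant at 11344 normalized counts per kilobase (mean of 8 libraries, range 9790 to 12670), above 99.7% of 14517 genes with a length. Hsp90aa1 followed at 5140 (range 4641 to 5940), then Cryab at 4316 (3786 to 4927), Hsp90b1 at 3333 (2736 to 4044) and Hspa5 at 2316 (2003 to 2658). Each of these genes overlapped its neighbour in range, except that Hspa8 lay above Hsp90aa1 and Hspa5 below Hsp90b1 in every library. Hspb1 had 1235 per kilobase (910 to 1829), below every value of Hspa5. Ddit3 (414), Dnajb1 (346), Hspa1a (178) and Hspa1b (167) formed the low end. In that group Ddit3 overlapped Dnajb1 and Hspa1a overlapped Hspa1b, while Dnajb1 stayed above Hspa1a. The inducible HSP70 genes thus sat at the middle of the expression range, above 55.6% and 53.6% of genes. Together the 10 genes took 0.392% to 0.451% of the normalized counts of a library.

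Hspa1a and Hspa1b encode the stress-inducible HSP70 proteins and lie side by side on chromosome 17 of GRCm38, both on the minus strand, Hspa1a at 34969190 to 34972156 and Hspa1b at 34956436 to 34959238, with 9951 bases between them. Of the 100-base windows of the Hspa1b transcript, 49.9% also occur in Hspa1a without a mismatch, and the promoters are nearly the same. The RefSeq windows (GRCm38.p6, 250 bases before to 50 bases after the start, chr17:34972107-34972406 and chr17:34959189-34959488, minus strand) are identical at 296 of 300 bases. They are shown so that the likeness of the pair can be seen, with the bases that differ in capitals.
Hspa1a: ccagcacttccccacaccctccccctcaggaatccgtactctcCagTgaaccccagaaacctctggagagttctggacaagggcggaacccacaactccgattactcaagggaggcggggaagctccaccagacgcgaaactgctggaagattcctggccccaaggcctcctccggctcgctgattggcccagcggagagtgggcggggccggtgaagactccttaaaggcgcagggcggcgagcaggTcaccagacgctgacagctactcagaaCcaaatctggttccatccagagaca
Hspa1b: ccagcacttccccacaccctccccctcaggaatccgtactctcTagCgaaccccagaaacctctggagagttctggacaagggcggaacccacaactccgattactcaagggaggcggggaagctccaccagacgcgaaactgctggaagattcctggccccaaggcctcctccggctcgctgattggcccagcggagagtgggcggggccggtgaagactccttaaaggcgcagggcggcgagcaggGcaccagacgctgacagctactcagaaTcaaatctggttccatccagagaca
The differences are C44T, T47C, T249G and C276T, Hspa1a first, counted from the 5′ end of the window. Both windows hold 1 pair of inverted heat shock units, GAANNTTC, at position -104 from the start, and neither holds the 3-unit element, in which GAA, TTC and GAA follow each other with 2 bases of any kind between units. On either strand, 15.1% of all 32851 RefSeq promoter windows hold a 2-unit match (GAANNTTC or TTCNNGAA) and 0.603% hold the 3-unit element. Among the other members with a window, Hspb1 holds GAANNTTC at -117 and at -97. The windows of Dnajb1, Hspa5, Hsp90b1 and Ddit3 hold neither a 2-unit match nor the 3-unit element.

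Hspa1a had 698.3, 529.1, 439.2 and 382.3 normalized counts in wild-type libraries 1 to 4, and 408.3, 508.6, 574.0 and 682.7 in heterozygote-labelled libraries 5 to 8. The genotypes overlapped across almost their whole range, with means of 512 ± 138 and 543 ± 115 (SD, n = 4 each). The log2 fold change was 0.10 with a 95% interval of -0.34 to 0.54 (limma-trend adjusted p 0.840). The direction depended on single libraries, with -0.030 without wild-type library 4 and -0.020 without heterozygote-labelled library 8. Without the 2 libraries low in Xist it was 0.39, with limma-trend p-values of 0.0366 unadjusted and 0.341 adjusted.

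Hspa1b had 367.4, 446.4, 331.7 and 365.7 normalized counts in wild type, and 416.7, 711.3, 543.8 and 556.7 in the heterozygote-labelled libraries. Library 6 was the highest, and library 5 lay below wild-type library 2, so the genotypes overlapped. Means were 378 ± 48.6 and 557 ± 121 (SD, n = 4 each), and the log2 fold change was 0.54 (95% interval 0.17 to 0.91, SE 0.17), with limma-trend p-values of 0.00744 unadjusted and 0.263 adjusted.

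The values of this pair depend on how shared reads were assigned, which is not given in the sources used here. Counted reads give values that are whole multiples of a step per library, and 88.5% to 91.7% of values under 1000 were whole within 0.05 normalized counts. Hspa1a and Hspa1b were each whole in 1 of 8 libraries, near the 7.71% to 12.7% that chance gives. Whole values did not follow shared sequence among the 10 genes. Ddit3, Dnajb1 and Hsp90b1 were whole in 8 of 8 libraries, Hspb1 in 7, though 42.7% of its windows are shared, and Hsp90aa1 in 6. Cryab was whole in 1 of 8 and Hspa5 in 2 of 8 with no shared window, and Hspa8 in 0. The step was estimated on values under 1000, so wholeness is less certain for the genes above that level. Hspa1a made up 57.0% ± 6.19 of the pair in wild type and 49.4% ± 5.64 in the heterozygote-labelled libraries (SD, n = 4 each). A division of shared reads between these 2 genes alone does not alter their sum, which was added as an alternative after seeing the data. Even at a wider tolerance, the sum was whole in only 3 of 8 libraries. Hspa1l shares 4.67% of the windows of Hspa1a and 3.29% of those of Hspa1b. The sum may therefore also depend on how reads were assigned. The sum was 1065.7, 975.5, 770.9 and 748.0 in wild type and 825.0, 1219.9, 1117.8 and 1239.4 in the heterozygote-labelled libraries. Wild-type libraries 1 and 2 and heterozygote-labelled library 5 each fell within the range of the other genotype. The log2 fold change of the sum was 0.30 (SE 0.16), with limma-trend p-values of 0.0769 unadjusted and 0.392 adjusted. The pair as a whole therefore did not reach an unadjusted p of 0.05, which Hspa1b alone did.

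**Figure D2:**
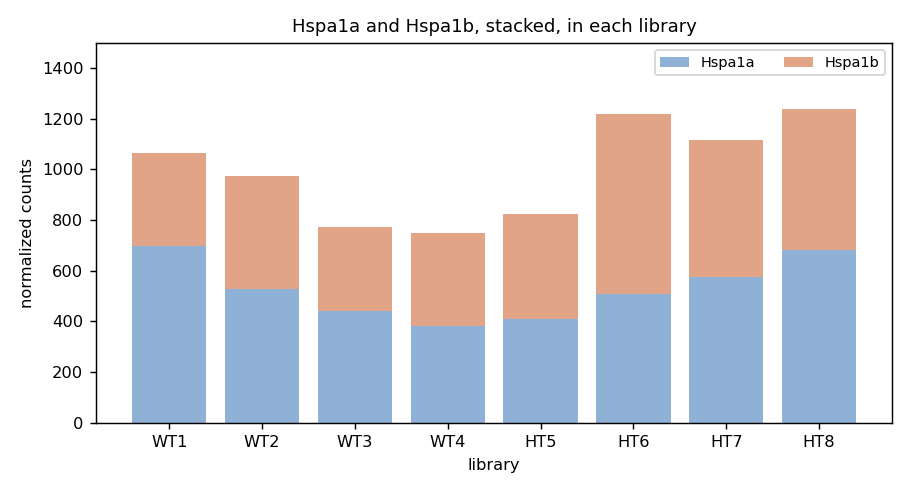
Stacked normalized counts (y axis, from 0) of Hspa1a and Hspa1b in each of the 8 libraries (x axis). The sum runs from 748.0 in wild-type library 4 to 1239.4 in heterozygote-labelled library 8, and the genotypes overlap.

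Dnajb1, the HSP40 co-chaperone that pairs with inducible HSP70, was the 1 member of the 10 whose heterozygote-labelled libraries all lay above wild type. It lies on chromosome 8 at 83608193 to 83612653, and none of its 100-base windows occur in another transcript. Wild-type libraries had 947.4, 982.5, 938.6 and 774.2 normalized counts and heterozygote-labelled libraries 1253.5, 1030.8, 1121.4 and 1233.9. Wild-type library 4 was the lowest of all, and heterozygote-labelled library 6 came nearest to wild type. Means were 911 ± 92.9 and 1159.9 ± 104 (SD, n = 4 each), and the log2 fold change was 0.35 (95% interval 0.11 to 0.59), with limma-trend p-values of 0.00842 unadjusted and 0.266 adjusted. Its log2 fold change ran from 0.27 without wild-type library 4 to 0.41 without heterozygote-labelled library 6. Immediate early genes, which respond to handling and activity, had summed normalized counts of 3688 to 5175 in wild type and 4776 to 5178 in the heterozygote-labelled libraries, with 6 of 10 higher. Wild-type library 1 was the lowest. Jun made up much of this sum, at 1502.8 to 2699.3. Nr4a1 alone of the 10 had an unadjusted limma-trend p under 0.05 (0.00162), against 14.1% of all genes. It had 188.2 to 307.5 in wild type and 326.7 to 585.1 in the heterozygote-labelled libraries, without overlap. The part of handling in the Dnajb1 and Hspa1b values was not tested.

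For Hspa8 and Hsp90aa1, the most abundant of the 10, the 95% interval of the difference included 0. Hspa8 had 23438, 26181, 30332 and 25925 normalized counts in wild type and 26423, 28537, 28113 and 28310 in the heterozygote-labelled libraries, so wild-type libraries 1 and 3 marked both ends of the range. Its log2 fold change was 0.08 (95% interval -0.17 to 0.33). Hsp90aa1, the inducible cytosolic HSP90, had 16489, 15351, 19489 and 19262 in wild type and 17554, 15846, 15683 and 15229 in the heterozygote-labelled libraries, and wild-type libraries 3 and 4 were the highest. Its log2 fold change was -0.13 (95% interval -0.37 to 0.11). Both have processed copies in the genome: 62.8% of the 100-base windows of Hspa8 and 47.5% of those of Hsp90aa1 occur in transcripts of other genes. Whether shared reads were divided is not given in the sources used here.

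The small heat shock proteins bind unfolding proteins without using ATP. Hspb1 is made in sensory neurons and Cryab in glia and muscle. Cryab had 5503.9, 5130.7, 5260.7 and 4760.1 normalized counts in wild type and 4392.0, 4728.7, 4565.6 and 4228.8 in the heterozygote-labelled libraries. The genotypes did not overlap, but wild-type library 4 and heterozygote-labelled library 6 nearly met. Means were 5164 ± 310 and 4479 ± 216 (SD, n = 4 each), and the log2 fold change was -0.20 (95% interval -0.39 to -0.02), with limma-trend p-values of 0.0317 unadjusted and 0.320 adjusted. Hspb1 had 1701.4, 1199.4, 925.8 and 1325.0 in wild type and 846.2, 1296.5, 1008.4 and 887.0 in the heterozygote-labelled libraries. Wild-type library 1 was far above the rest and the genotypes overlapped, with a log2 fold change of -0.34 (95% interval -0.73 to 0.06; limma-trend adjusted p 0.409). Single libraries moved this value: it was -0.19 without wild-type library 1, -0.48 without wild-type library 3 (unadjusted p 0.0122) and -0.46 without heterozygote-labelled library 6 (unadjusted p 0.0252).

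Transcript length and markers of cell types were set beside these values. The marker lists, too, were chosen with earlier results of these data known. Across genes the log2 fold change followed transcript length, with medians of -0.23 for 2025 genes under 1500 bases and 0.10 for 7767 genes of at least 3000 bases. Cryab, Hspb1 and Ddit3 have the shortest transcripts of the 10, at 1117, 930 and 890 bases. After a correction for length, chosen after seeing the data, the log2 fold change was 0.028 for Cryab, -0.06 for Hspb1 and 0.20 for Ddit3. The same correction left Dnajb1 at 0.36, Hspa1b at 0.57, Hspa5 at -0.27 and Hsp90b1 at -0.22. For Cryab the direction therefore flips with the length correction. Of 12 oligodendrocyte markers, 10 were lower in the heterozygote-labelled libraries, against 47.7% of all genes. Of these lower markers, 5 passed the adjusted p, as did 0.0807% of all genes. Summed normalized counts of the 12 markers were 211910 to 280714 in wild type and 111429 to 145944 in the heterozygote-labelled libraries. Of 8 astrocyte markers, 6 were lower, with sums of 44153 to 65687 and 36940 to 59814. The 3 tested skeletal muscle markers were all lower, with small sums of 292 to 442 and 226.5 to 350. Other lists went both ways. Of 8 Schwann cell markers, 6 were lower, with sums of 118072 to 150759 and 106599 to 147498. Lower markers numbered 5 of 7 for satellite and non-myelinating glia, 6 of 7 for macrophages and 5 of 5 for erythroid cells. For spiral ganglion neurons they numbered 6 of 10. Higher markers numbered 5 of 6 for fibroblasts, 5 of 6 for endothelial cells and 4 of 6 for pericytes and smooth muscle. All 5 tested neutrophil markers were higher, with a median log2 fold change of 3.62 and summed normalized counts of 117.2 to 2363 in wild type and 668.3 to 6072 in the heterozygote-labelled libraries. The highest wild-type sum, in library 1, was mostly Ltf, at 2176.4. In wild-type libraries 2 to 4 the sums were 149.1, 366.6 and 117.2. In 4 of the 5 the heterozygote-labelled libraries were higher without overlap, against 3.4% of all genes. All 8 osteoblast and osteocyte markers were higher, with a median of 0.64 and sums of 5203 to 18778 and 11128 to 24724. Of 10 markers of cochlear hair and supporting cells, 9 were higher, with a median of 0.28 and sums of 123583 to 156433 and 142078 to 175037. Tecta of that list had the largest difference, 2.91. No marker of these neutrophil, bone and cochlear lists passed the adjusted p. At an unadjusted p under 0.05, 4, 4 and 3 of them were higher, against 6.72% of all genes. None of the markers found among the 15035 genes was at 0 in all libraries. Only 3 of 8 listed skeletal muscle markers and 5 of 7 listed neutrophil markers were found there. Absent markers could not be checked. In bulk RNA, fewer cells of a type and less RNA per cell cannot be told apart, and the part of cell makeup in the Cryab, Dnajb1 and Hspa1b values was not tested. Hspb2, which lies head to head with Cryab and overlaps it on the opposite strand, had a log2 fold change of -0.40 with an unadjusted p of 0.0651. It was picked with its value known, and whether counting used the strand is not given in the sources used here.

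**Figure D3:**
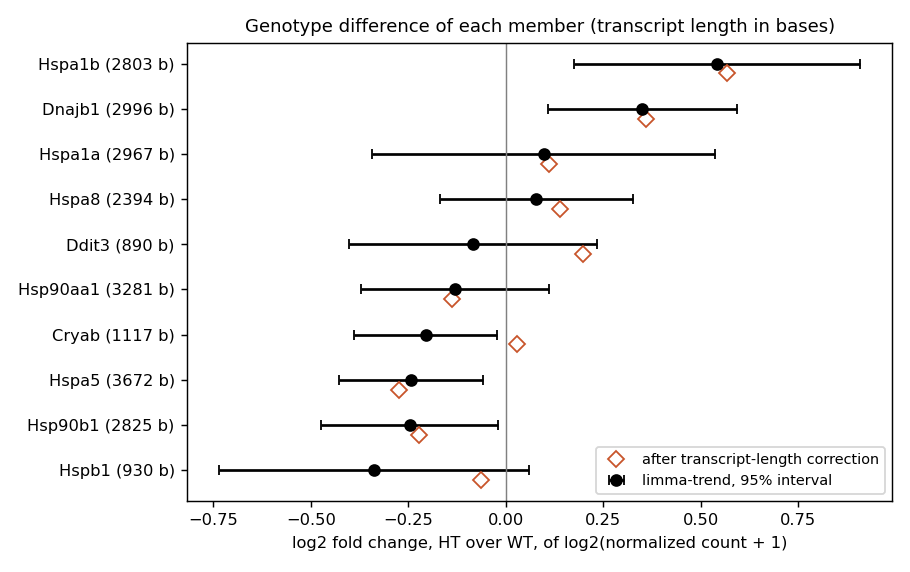
Log2 fold change of heterozygote-labelled over wild-type libraries (x axis) for each of the 10 genes, with its transcript length. Filled circles with bars are limma-trend estimates with 95% intervals, and open diamonds are estimates after the correction for transcript length. The 3 genes with transcripts under 1500 bases shift to the right, Cryab from -0.20 to 0.028, and the other 7 stay close to their circles.

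Hspa5 encodes BiP, the HSP70 of the endoplasmic reticulum lumen and the repressor of the unfolded protein sensors, and Hsp90b1 encodes GRP94, the HSP90 of the same compartment. The promoters of both hold the endoplasmic reticulum stress element, CCAAT and CCACG with 9 bases of any kind between them, the site through which the unfolded protein response acts on these genes. They are shown because both genes had lower means and share this element. The RefSeq windows (GRCm38.p6) are chr2:34771840-34772139, plus strand, for Hspa5 and chr10:86705395-86705694, minus strand, for Hsp90b1, with matches to the element in capitals.
Hspa5: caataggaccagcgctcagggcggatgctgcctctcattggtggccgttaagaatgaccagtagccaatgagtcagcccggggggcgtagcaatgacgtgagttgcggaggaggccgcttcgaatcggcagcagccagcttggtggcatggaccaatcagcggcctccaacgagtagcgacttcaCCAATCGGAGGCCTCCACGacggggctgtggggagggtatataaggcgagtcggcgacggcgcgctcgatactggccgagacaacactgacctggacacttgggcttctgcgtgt
Hsp90b1: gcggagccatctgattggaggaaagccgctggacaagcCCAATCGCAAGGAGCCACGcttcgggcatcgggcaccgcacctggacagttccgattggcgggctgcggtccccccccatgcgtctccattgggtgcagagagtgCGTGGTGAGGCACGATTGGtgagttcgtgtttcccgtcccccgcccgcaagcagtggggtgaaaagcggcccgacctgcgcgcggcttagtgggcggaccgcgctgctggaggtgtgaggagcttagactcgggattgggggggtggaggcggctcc
Hspa5 has 1 match, at position -65 from the start, and Hsp90b1 has 2, at -212 and, on the other strand, at -107. Of all 32851 windows, 39 (0.119%) hold a match. The Ddit3, Dnajb1, Hspb1, Hspa1a and Hspa1b windows hold none. A match describes the letters only.

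Hspa5 had 8855.9, 9275.0, 8980.2 and 9759.5 normalized counts in wild type and 7673.3, 8185.5, 7951.3 and 7354.2 in the heterozygote-labelled libraries. Every heterozygote-labelled library lay below every wild-type one, and the spread within each genotype was small. Means were 9218 ± 402 and 7791 ± 359 (SD, n = 4 each), and the log2 fold change was -0.24 (95% interval -0.43 to -0.06), with limma-trend p-values of 0.0139 unadjusted and 0.278 adjusted. Over the alternatives its log2 fold change ran from -0.27 to -0.18, and its adjusted p from 0.0786 to 0.616.

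Hsp90b1 had 10579, 8990, 9893 and 11425 normalized counts in wild type and 8312, 9165, 9237 and 7730 in the heterozygote-labelled libraries. Wild-type library 2 lay below heterozygote-labelled libraries 6 and 7, so the genotypes overlapped. Means were 10222 ± 1033 and 8611 ± 722 (SD, n = 4 each), and the log2 fold change was -0.25 (95% interval -0.47 to -0.02), with limma-trend p-values of 0.0361 unadjusted and 0.329 adjusted. Over the alternatives its log2 fold change ran from -0.31 to -0.18. Its unadjusted p was under 0.05 in only 13 of the 20.

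Ddit3 encodes CHOP, the transcription factor of prolonged endoplasmic reticulum stress. It had 442.5, 317.8, 382.2 and 376.8 normalized counts in wild type and 381.3, 371.2, 308.2 and 367.5 in the heterozygote-labelled libraries. The genotypes overlapped, and wild-type library 1 was the highest. The log2 fold change was -0.08 (95% interval -0.40 to 0.23, limma-trend adjusted p 0.807). Ddit3 overlaps Mars, on the opposite strand, and 2 gene entries carry its symbol in GENCODE M21, though its values were whole reads in 8 of 8 libraries.

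The 10 genes were compared in all 45 pairs over the 8 libraries, on log2 values with exact two-sided permutation p-values. Of these, 2 pairs passed an adjusted p of 0.05, and both were negative and involved Dnajb1. Dnajb1 and Hspa5 had a Pearson r of -0.94 (exact permutation p 0.000446, Benjamini-Hochberg adjusted p 0.0201) and a Spearman rho of -0.90 (exact permutation p 0.00456, adjusted p 0.205). Without the 2 libraries farthest from the median of Dnajb1, wild-type library 4 and heterozygote-labelled library 5, r was -0.94. Dnajb1 and Hsp90b1 had an r of -0.92 (exact permutation p 0.00169, adjusted p 0.0379), a rho of -0.86 (exact permutation p 0.0107, adjusted p 0.241) and an r of -0.86 without the same 2 libraries. The genotypes differ in level for both genes of each pair, and 4 libraries are too few for an r within a genotype. With each genotype's mean subtracted, r was -0.84 for Dnajb1 with Hspa5 and -0.83 for Dnajb1 with Hsp90b1, given as a description. Both pairs lost the adjusted threshold under quantile normalization, with r of -0.89 and -0.86, and the second lost it under upper-quartile scaling. With 1 library left out, 2 pairs passed without wild-type library 2 and 0 without any other library.

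Hspa5 and Hsp90b1 had an r of 0.84 (exact permutation p 0.00843, adjusted p 0.126) and a rho of 0.71 (exact permutation p 0.0576, adjusted p 0.255). Without the 2 libraries farthest from the median of Hspa5, r was 0.58. Hspa1a and Hspa1b, whose values depend on how their shared reads were divided, had an r of 0.34 (exact permutation p 0.399, adjusted p 0.607) and a rho of 0.40 (exact permutation p 0.327, adjusted p 0.566). Without the 2 libraries farthest from the median of Hspa1a, r was 0.57.

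**Figure D4:**
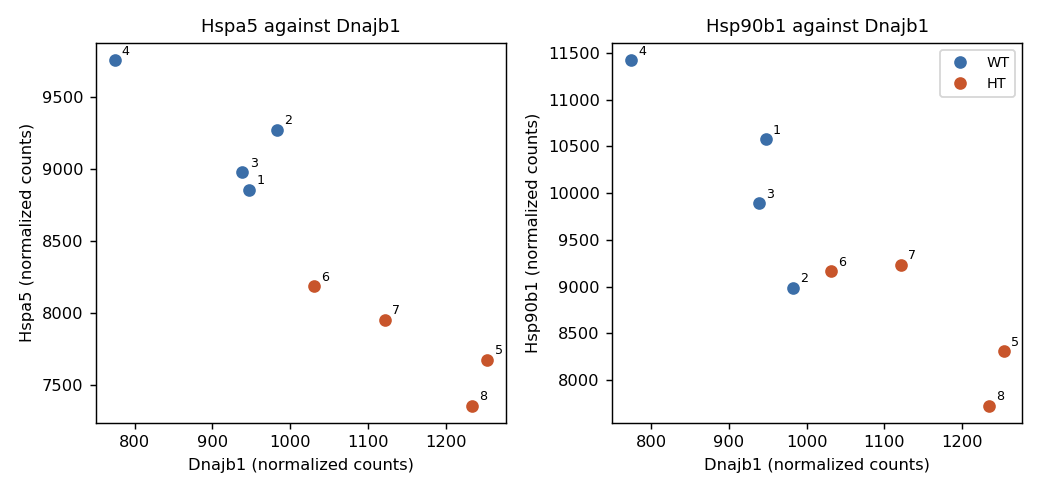
Normalized counts of Hspa5 (left, y axis) and Hsp90b1 (right, y axis) against Dnajb1 (x axis) in the 8 libraries, wild type in blue and heterozygote-labelled in orange, with replicate numbers. Libraries high in Dnajb1 are low in both endoplasmic reticulum chaperones, with r of -0.94 and -0.92.

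Other genes of the same systems were read from lists of pathway genes, which were also chosen with earlier results of these data known. Of 25 tested chaperones and foldases of the endoplasmic reticulum, 0 passed the adjusted p, and at an unadjusted p under 0.05 there were 6 lower and 0 higher, against 7.34% lower and 6.72% higher among all genes. Their median log2 fold change was -0.07, with 15 of 25 lower, against 0.015 and 47.7% lower among all genes. Calr, which encodes the calcium-binding lectin chaperone calreticulin, had 8946 ± 729 normalized counts in wild type and 6995 ± 1025 in the heterozygote-labelled libraries (SD, n = 4 each), with no overlap and a log2 fold change of -0.36 (limma-trend adjusted p 0.266). Manf, a secreted protein of the same stress response, had a log2 fold change of -0.29 (limma-trend adjusted p 0.278), or -0.22 after the correction for transcript length. Among the 18 tested genes with the stress element in a promoter window, 9 were lower and 9 higher, with a median of -0.007. The 4 at an unadjusted p under 0.05 were all lower: Calr, Hspa5, Hsp90b1 and Creld2 (-0.29). Of 11705 tested genes without the element, 859 were lower and 791 higher at this threshold. The lower means of Hspa5 and Hsp90b1 were the reason for showing the element, so this count is not independent of them. Dnajc3 (0.10) and Canx (-0.02) also hold the element. Creld2, Dnajc3 and Canx are outside the rule for naming genes and were picked with their values known.

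The upstream branches of the unfolded protein response did not pass the adjusted p in any of 13 sensors and factors. Their median log2 fold change was 0.14, with 8 of 13 higher, against 0.015 and 7771 of 14870 among all genes. Atf4, the translationally controlled factor of the PERK branch, had 3176, 3162, 3491 and 3566 normalized counts in wild type and 3020, 2945, 3084 and 2704 in the heterozygote-labelled libraries. The genotypes did not overlap, with a log2 fold change of -0.19 and an unadjusted p of 0.0485, and the correction for transcript length brought it to -0.05. The log2 fold changes were -0.16 for Xbp1, the factor spliced by IRE1, 0.22 for Atf6, 0.22 for Eif2ak3 (PERK) and 0.15 for Ern1 (IRE1), with limma-trend adjusted p from 0.435 to 0.772. The length correction brought Xbp1 to -0.07, Atf6 to 0.046 and Eif2ak3 to 0.15, and it turned the direction of Ern1, to -0.016. Creb3, a membrane-bound factor of the secretory pathway, had -0.33 (unadjusted p 0.0178, limma-trend adjusted p 0.285), or -0.21 after the length correction (unadjusted p 0.0618). Of 15 genes for degradation of misfolded proteins at the reticulum, 1 was higher and 1 lower at an unadjusted p under 0.05. Among all genes 6.72% were higher and 7.34% lower at this threshold. Edem1, which acts in the degradation of misfolded glycoproteins, had 399 ± 5.63 and 503 ± 47.7 normalized counts (SD, n = 4 each) without overlap. Its log2 fold change was 0.33, or 0.20 after the length correction, and Edem2 had a log2 fold change of -0.32. Of 21 genes of the ATF4 and CHOP response, 16 were lower, against 47.7% of all genes, with a median of -0.16. At an unadjusted p under 0.05 there was 1, against 14.1% of all genes, Phgdh of serine synthesis. Its log2 fold change was -0.40 (limma-trend adjusted p 0.266), or -0.29 after the length correction.

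Of the 28 other cytosolic chaperones and co-chaperones, 1 was higher and 3 lower at an unadjusted p under 0.05, against 6.72% and 7.34% of all genes, and the median was -0.03. Dnaja4 had a log2 fold change of 0.27, Hspbp1, a nucleotide exchange factor, had -0.41, and Dnajb2 had -0.26. Hsf1, the master regulator of the heat shock response, had 601 ± 99.2 and 614 ± 63.8 normalized counts (SD, n = 4 each), with a log2 fold change of 0.04 and a 95% interval of -0.27 to 0.35. Hsbp1, which binds heat shock factor, had 2152 ± 355 and 1639 ± 132 without overlap (SD, n = 4 each). Its log2 fold change was -0.38 (limma-trend adjusted p 0.263). All 8 subunits of the cytosolic TRiC chaperonin had lower means in the heterozygote-labelled libraries, against 47.7% of all genes, with a median of -0.08. Its subunit Cct5 had a log2 fold change of -0.30 and Cct3 of -0.21, both without overlap. Of 10 mitochondrial chaperones and proteases, 9 were lower with a median of -0.06, and Clpp had -0.40. The length correction reduced these differences, to -0.17 for Hsbp1 (unadjusted p 0.115), -0.11 for Cct3 (unadjusted p 0.154), -0.18 for Cct5, -0.26 for Hspbp1 and -0.14 for Clpp. Of the 4 other small heat shock proteins tested, none had an unadjusted p under 0.05.

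**Figure D5:**
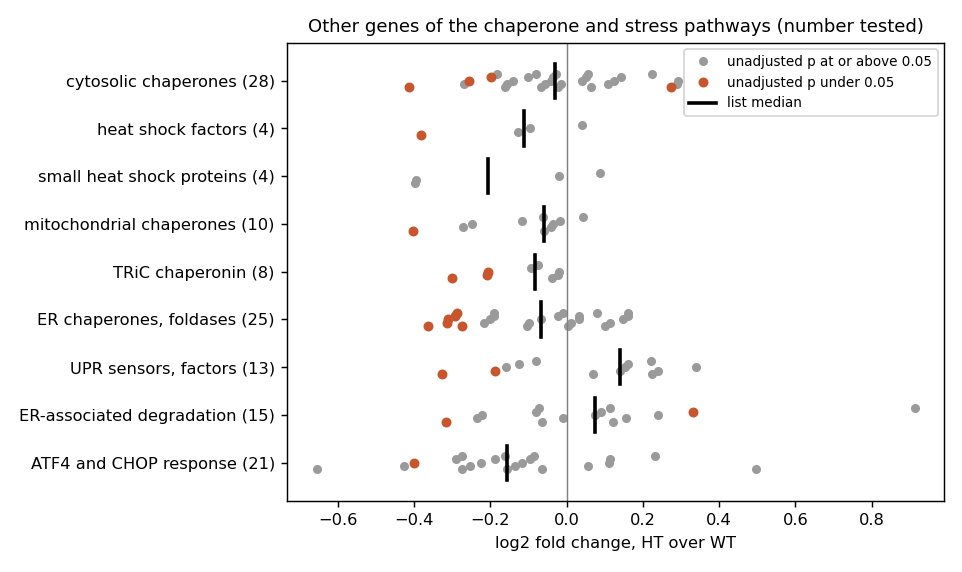
Log2 fold change of heterozygote-labelled over wild-type libraries (x axis) for each tested gene of 9 pathway lists (rows, with the number tested). Orange points have an unadjusted p under 0.05, grey points do not, and black lines are list medians, which run from -0.21 for the small heat shock proteins to 0.14 for the sensors and factors of the unfolded protein response (UPR).

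The 3 members with the widest spread over the libraries were Hspa1b, Hspb1 and Hspa1a, with ratios of highest to lowest library of 2.14, 2.01 and 1.83. For each, the genes with the most alike profile were those with the smallest root mean square difference of centred log2 values over the 8 libraries. For Hspa1b these were Slc5a3 (0.07), which encodes a myo-inositol transporter, Actn1 (0.11) and Plce1 (0.12), against a spread of Hspa1b itself of 0.35. Slc5a3 had its highest value, 4717 normalized counts, in heterozygote-labelled library 6, as Hspa1b did, and 2815 in library 5. Hspb1 was closest to Arc (0.05), an immediate early gene, then Rnf113a2 (0.09) and Lcmt1 (0.09), against its own spread of 0.33. Hspa1a was closest to Gucy1a1 (0.08), Fmnl1 (0.11) and Zfp800 (0.11), against 0.30. These genes were picked for their likeness among all tested genes with a mean of at least 50 normalized counts.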

How the data were processed

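Auditory nerve poly(A) RNA, from 50 ng of total RNA with RIN of at least 7, was sequenced in 8 libraries, 4 per genotype, per the labels' protocols. The submitters' processing notes name STAR, Partek, DESeq2 and mm10, without versions or roles. The authors deposited a signal column per sample, gene counts divided by a size factor, as judged from the values, beside p-value, FDR, ratio and log2 ratio columns and a signed fold change (a score, not used), per the file headers. The unit first assumed was counts. Since 88.5% to 91.7% of values were whole reads, under the 95% needed, no count model was used. Depth is estimated from the step between values, and 3 reads equal 2.37 to 3.89 normalized counts.

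Genes reaching 10 normalized counts in 4 or more libraries were fitted as log2(value + 1) with limma-trend (R 4.3.3, limma 3.58.1; Python 3.11.15), adjusted with Benjamini-Hochberg. Transcript lengths are of the longest coding GENCODE M21 transcript (GRCm38, matched for 97.6% of tested genes), and the length correction subtracts a loess trend (span 0.5) per library. Promoters are from RefSeq GRCm38.p6, matched for 7 of 10 members. The members and lists were chosen with earlier results of these data known. Named were the members, 6 regulators, up to 2 genes per direction and pathway list at an unadjusted p under 0.05, genes passing adjustment, and 3 most alike profiles for 3 members. On simulated data for this comparison (14870 genes), 87.0% of 2-fold and 95.0% of 4-fold changes were recovered. The differences of the 10 members were all smaller than 2-fold, the largest a ratio of 1.47 for Hspa1b. Recovery of changes of that size was not tested.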

Additional observations from a re-analysis of the deposited data

Results flagged for a closer look

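Among 76 groups of 4 libraries (38 named genes in 2 genotypes), 3 held a library far from the other 3, where chance gives 3.8, about 1 in 20. None was among the 10 chaperone genes. Manf was at 1121 normalized counts in library 5, labelled heterozygote, and at 911.4 to 921.7 in libraries 6 to 8, a gap of 0.951 of the range. Fmnl1 had 388 in wild-type library 1 against 242.8 to 259.4 (gap 0.886 of the range). Phgdh had 935.7 in heterozygote-labelled library 8 against 1080.4 to 1102.6 (gap 0.867 of the range).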

How the results depend on the processing

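The number of the 10 chaperone genes past the adjusted threshold was 0 in every alternative run, with 3 to 6 at an unadjusted p under 0.05. The number of all genes past it was 12, and it was 7 with quantile normalization, 96 with sample quality weights, 576 with the residuals' first component as covariate, 24 with the length correction, and 0 to 221 with 1 library left out (221 without wild-type library 3; 0 without any of wild-type libraries 2 and 4 and library 8). Pairs of members past the threshold numbered 2, then 1 with upper-quartile scaling, 0 with quantile normalization and 0 to 2 with 1 library left out, where only 7 libraries remain. The direction flipped with the length correction for Cryab (0.028), Ddit3 (0.20), Ern1 (-0.016) and Gucy1a1 (-0.026), without the 2 libraries low in Xist for Hsf1 (-0.11) and Zfp800 (0.22), and with quality weights for Hsf1 (-0.063). With 1 library left out the log2 fold change ran from -0.030 to 0.26 for Hspa1a, -0.074 to 0.12 for Hsf1, -0.015 to 0.27 for Ern1, -0.24 to 0.083 for Zfp800, -0.097 to 0.25 for Gucy1a1 and -0.040 to 0.22 for Fmnl1. The cause was not tested. No paired analysis was possible because the genotypes share no replicate numbers.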
